A study of Mus musculus with 21 samples.

Results

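Pdx1, Sox9, Hnf4a, Gata6, Gata4, Foxa1, Foxa2 and Onecut2 are 8 transcription factors that specify or maintain the pancreatic lineage. They were taken by symbol from a table of 24623 gene symbols, in which all 8 had a value and all 8 passed the filter on low values. In the embryo the FOXA and GATA factors open foregut chromatin, Pdx1 marks the endoderm that becomes pancreas, and Sox9, Hnf4a and Onecut factors keep the progenitor and later the duct and gut-type programmes running. In pancreatic cancer, high GATA6 and HNF4A are known as features of the classical, better differentiated subtype, and their loss as a feature of the basal-like subtype.

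The libraries came from 2 clones of mouse pancreatic tumour cells, 6694c2 and 6419c5. The cells grew under the skin of C57BL/6 mice and were sorted out of the tumours after 3 weeks, with no treatment. Each clone had a parental line, called WT here, and a pair of EPHA2-KO lines, called KOA and KOB as in the table's column names. There were 4 libraries of each 6694c2 line and 3 of each 6419c5 line, 21 in all. EPHA2 is a receptor tyrosine kinase for ephrin ligands. The labels say neither how EPHA2 was edited nor whether each library stands for its own animal, so p-values measure the spread between libraries, which may be technical. As a clone had 1 WT line and 2 KO lines, the knockout and other differences between lines cannot be told apart. The labels number the KO lines 1 and 2 and do not tie a number to a letter.

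Values are TPM, the share of a transcript among all transcripts in the library, a relative level already divided by transcript length, so different genes can be compared. Every library added up to 1000000 TPM and the number of reads behind it is unknown. With the KO lines averaged, Epha2 itself differed from WT in 6694c2, by −1.21 ± 0.09 (log2, SE, limma adjusted p 1.5e-08), and showed a difference of −0.03 ± 0.10 in 6419c5 (adjusted p 0.819). By line it stood at −0.22 ± 0.12 in KOA and 0.16 ± 0.12 in KOB of 6419c5 (adjusted p 0.173 and 0.312). KOB there exceeded KOA by 0.38 ± 0.12 (adjusted p 0.0369). Transcript level and protein loss are different measurements, and protein was not analysed here. The ductal list (Krt19, Krt8, Krt18, Epcam, Cdh1 and 5 more) summed to at least 11733 TPM in every library. The list of endocrine hormone genes summed to at most 0.763 TPM, and the acinar factor Ptf1a was listed at 0 in all 21 libraries. Other acinar genes were present. The 12 acinar markers summed to 66.4 to 73.5 TPM in WT, 48.5 to 177.2 TPM in KOA and 181.6 to 241.7 TPM in KOB of 6694c2. In 6419c5 they summed to 27.2 to 35.8 TPM in WT, 3.54 to 10.2 TPM in KOA and 4.47 to 13.4 TPM in KOB. Stromal markers were present: the 14 macrophage markers summed to between 209.5 and 4455 TPM and the 12 fibroblast and pericyte markers to between 78.7 and 2693 TPM.

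Some libraries stood apart. In 6694c2 KOA, libraries 1 and 2 resembled each other (r = 0.981 across tested genes), as did libraries 3 and 4 (r = 0.988), while r across these pairs ran from 0.966 to 0.972. Library 2 of 6419c5 KOA held 4455 TPM of macrophage markers against 393.2 and 340.0 TPM in the other libraries of that line. The small RNA gene Mir6236 took 14.5% of all TPM in 6694c2 KOB library 4 and 9.11% in 6419c5 WT library 3, against a lowest share of 2.27%. Calls of the 8 factors that changed without these libraries are named beside the results.

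The promoters of 4 of the 8 genes are shown because several members are known to bind one another's control regions, so their own start sites are where such sites would be looked for. They are RefSeq sequences on GRCm38.p6, the 250 bases before the start site less any annotated exon, 5′ to 3′ on the gene's strand. Capitals mark matches, on either strand, to 7 short motifs of the factor families. Among 32851 mouse promoters of 250 bases, the FOXA letters TGTTTAC were in 3.17%. The GATA letters AGATAA were in 9.99% and the HNF1 letters GTTAAT in 6.43%. The HNF4 letters CAAAGTCCA were in 0.384% of them. The ONECUT letters ATTGATT were in 2.61%. The PDX letters TAATTA were in 4.84%. The SOX letters ACAATGG were in 3.02%. Pdx1 lies on chromosome 5 and its stretch is chr5:147269847-147269958 on the plus strand. The Hnf4a stretch is chr2:163506607-163506807 on the plus strand, the Foxa2 stretch chr2:148046970-148047219 on the minus strand and the Foxa1 stretch chr12:57546122-57546361 on the minus strand.
Pdx1: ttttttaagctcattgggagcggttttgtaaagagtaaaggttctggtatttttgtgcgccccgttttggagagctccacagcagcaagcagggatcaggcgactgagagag
Hnf4a: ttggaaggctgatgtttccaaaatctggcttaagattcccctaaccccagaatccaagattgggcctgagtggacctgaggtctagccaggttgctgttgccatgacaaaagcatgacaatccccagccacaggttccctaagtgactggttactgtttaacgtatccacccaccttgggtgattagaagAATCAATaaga
Foxa2: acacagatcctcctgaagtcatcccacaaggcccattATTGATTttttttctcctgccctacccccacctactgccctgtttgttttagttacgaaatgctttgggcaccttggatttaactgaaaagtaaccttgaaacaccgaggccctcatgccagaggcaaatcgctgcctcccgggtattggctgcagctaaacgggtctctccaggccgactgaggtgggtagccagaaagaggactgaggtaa
Foxa1: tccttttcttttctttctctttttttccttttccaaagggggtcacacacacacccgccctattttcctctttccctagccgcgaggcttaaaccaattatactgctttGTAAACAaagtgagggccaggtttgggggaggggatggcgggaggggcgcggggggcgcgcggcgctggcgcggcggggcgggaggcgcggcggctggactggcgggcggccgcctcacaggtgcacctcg
The Hnf4a promoter held AATCAAT, the ONECUT motif on the other strand, from 60 bases before the start. The Foxa2 stretch shown held ATTGATT from 213 bases before its start. RefSeq gives Foxa2 2 further starts on the same strand. The 250 bases before one, chr2:148045465-148045714, held the GATA letters AGATAA from 183 bases and the HNF1 letters on the other strand, ATTAAC, from 176 bases before the start, and those before the other, chr2:148045949-148046198, held none of the letters searched. The Foxa1 promoter held GTAAACA, the FOXA motif on the other strand, from 141 bases before the start. This Foxa1 start lies inside the longer gene model that runs from 57540628 to 57548029. The Pdx1 stretch held none of the letters searched. A match is a string of letters and was not tested for binding.

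Sox9, the factor of duct cells and progenitors, was the most abundant member in WT of 6694c2, and Hnf4a, a nuclear receptor of gut, liver and pancreas, in WT of 6419c5. In 6694c2 WT the mean levels in TPM were 172.9 for Sox9, 99.1 for Foxa2, 94.7 for Hnf4a, 68.0 for Onecut2, 60.5 for Gata6, 52.2 for Pdx1, 31.6 for Gata4 and 1.62 for Foxa1. Foxa2 and Hnf4a overlapped between libraries there, as did Onecut2 and Gata6, and the other neighbours in the order did not. In 6419c5 WT the order by mean TPM was Hnf4a at 89.1, Sox9 at 81.8, Onecut2 at 48.0, Pdx1 at 46.9, Foxa2 at 43.0, Gata4 at 22.6, Gata6 at 22.0 and Foxa1 at 6.08. Hnf4a overlapped with Sox9, Onecut2 with Pdx1, Pdx1 with Foxa2, and Gata4 with Gata6. Foxa1 stood last in all 6 groups without overlap with the member above it.

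In the KO lines the order shifted. In 6694c2 KOB the 7 members from Sox9 at 111.9 TPM down to Gata4 at 72.1 TPM formed an unbroken run in which neighbours overlapped, so no order among neighbours can be read there. In 6694c2 KOA, Sox9 led at 238.5 TPM, clear of Foxa2 at 99.3 TPM. In both KO lines of 6419c5 Hnf4a led without overlap, at 127.8 TPM in KOA and 114.5 TPM in KOB. The next member was Pdx1 in KOA, at 69.2 TPM, and Sox9 in KOB, at 78.7 TPM, where the ranges of Sox9 and Pdx1 overlapped.

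**Figure D1:**
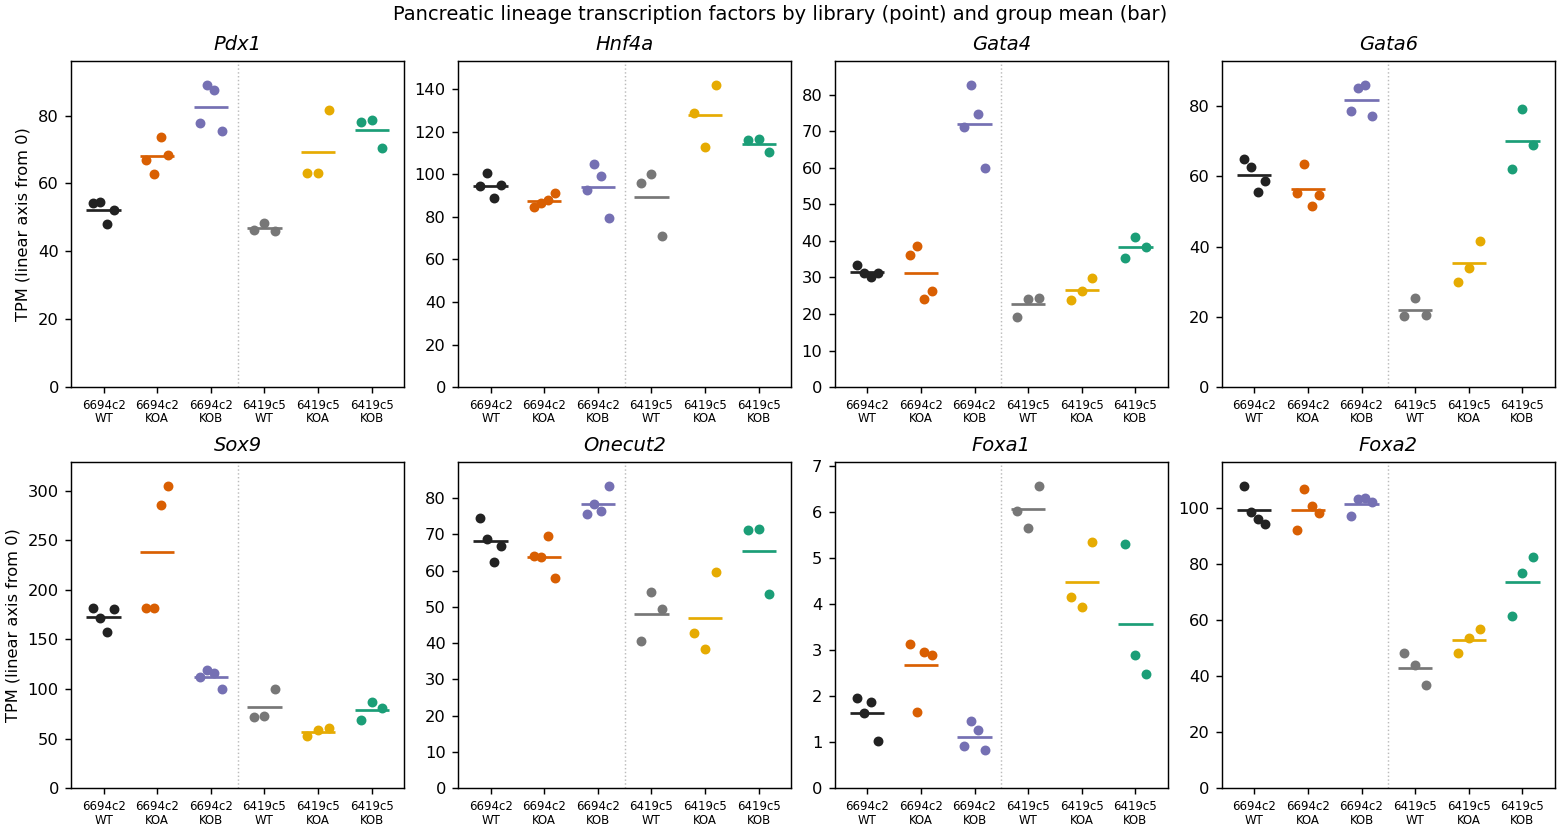
TPM of the 8 factors in each of the 21 libraries (points) with group means (bars), on linear axes that start at 0 and differ between panels. Pdx1 lies between 46.1 and 54.5 TPM in the 7 WT libraries and between 62.8 and 89.0 TPM in the 14 KO libraries.

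Pdx1, the founding factor of the pancreatic bud, was higher in every KO library than in any WT library of its clone. In 6694c2 it measured 54.2, 54.5, 47.9 and 52.0 TPM in WT libraries 1 to 4, 67.0, 62.8, 73.8 and 68.3 TPM in KOA, and 77.7, 89.0, 87.5 and 75.6 TPM in KOB. In 6419c5 it measured 46.2, 48.3 and 46.1 TPM in WT, 63.0, 63.0 and 81.7 TPM in KOA, and 78.0, 78.6 and 70.5 TPM in KOB. The 3 groups of 6694c2 do not overlap, while KOA and KOB of 6419c5 do. Against WT, Pdx1 rose by 0.38 ± 0.08 in KOA and 0.65 ± 0.08 in KOB of 6694c2 (log2 of TPM + 1, SE, limma adjusted p 0.003 and 3.19e-06). In 6419c5 it rose by 0.54 ± 0.09 in KOA and 0.68 ± 0.09 in KOB (adjusted p 2.5e-04 and 1.8e-05). These 4 calls held under all alternatives run for them, and the effects of the clones differed by −0.10 ± 0.11 (6694c2 less 6419c5, adjusted p 0.534). Pdx1 was also higher in KOB than in KOA of 6694c2, by 0.27 ± 0.08 (adjusted p 0.0106), which became 0.21 (adjusted p 0.0953) without KOA libraries 1 and 2. In bulk RNA, more cells of a type and more RNA per cell cannot be told apart.

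**Figure D2:**
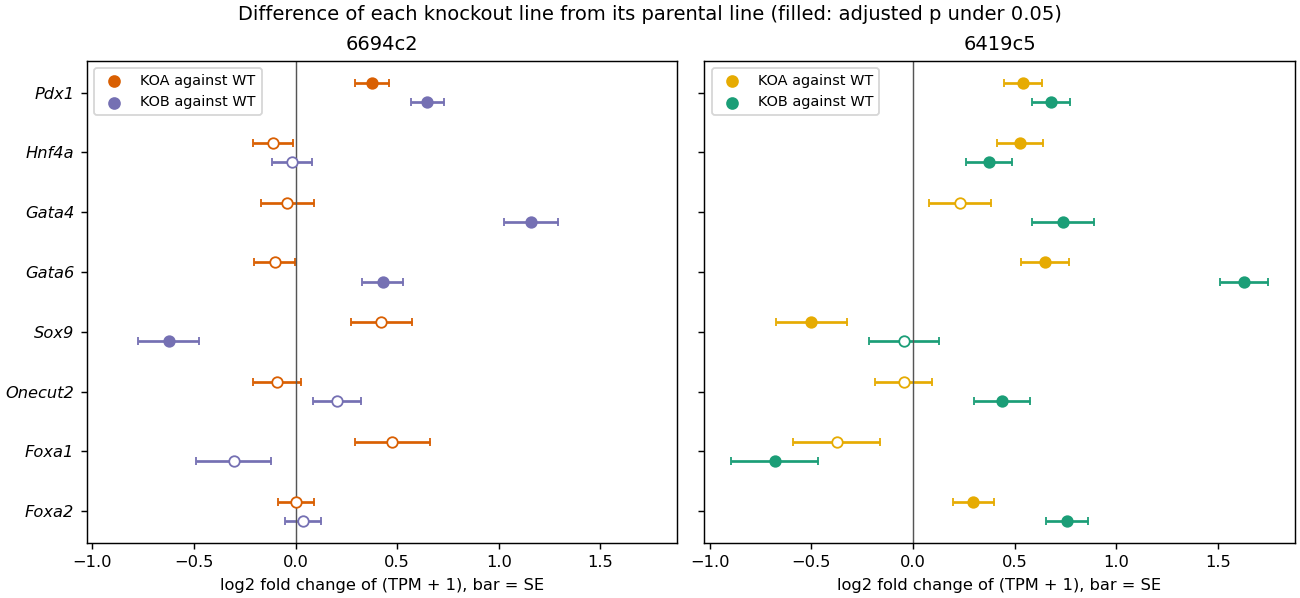
Log2 fold change of TPM + 1 for each factor in KOA and KOB against WT of the same clone, with bars of 1 SE; filled points have a limma adjusted p under 0.05. Pdx1 is filled in all 4 lines, and Gata6 ranges from −0.10 in 6694c2 KOA to 1.63 in 6419c5 KOB.

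Gata6 and Gata4, the zinc finger factors that act together in early pancreas growth, were highest in KOB of both clones. In 6694c2, Gata6 measured 65.1, 62.7, 55.6 and 58.7 TPM in WT, 55.4, 63.7, 51.5 and 54.8 TPM in KOA, and 78.7, 85.1, 86.0 and 77.3 TPM in KOB. All 4 KOB libraries lay above all others of the clone, and WT and KOA overlapped. In 6419c5 it measured 20.3, 25.3 and 20.4 TPM in WT, 29.9, 34.1 and 41.8 TPM in KOA, and 62.2, 79.4 and 68.9 TPM in KOB. These 3 groups do not overlap, and KOB averaged 3.18 times WT. Gata6 rose in 6419c5 KOB by 1.63 ± 0.12 (adjusted p 1.82e-08), in 6419c5 KOA by 0.65 ± 0.12 (adjusted p 3.57e-04) and in 6694c2 KOB by 0.43 ± 0.10 (adjusted p 0.00183). In 6694c2 KOA the difference was −0.10 ± 0.10 (adjusted p 0.506). Gata6 also rose from KOA to KOB, by 0.98 ± 0.12 in 6419c5 and 0.53 ± 0.10 in 6694c2 (adjusted p 2.2e-05 and 3.17e-04).

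Gata4 in 6694c2 measured 33.5, 31.3, 30.2 and 31.3 TPM in WT, 36.0, 38.6, 24.0 and 26.4 TPM in KOA, and 71.2, 82.6, 74.7 and 60.1 TPM in KOB. The KOA libraries split, 2 above and 2 below the whole WT range, and all KOB libraries were clear of both. In 6419c5 it measured 19.2, 24.1 and 24.5 TPM in WT, 23.7, 26.4 and 29.8 TPM in KOA, and 35.2, 41.1 and 38.5 TPM in KOB. Gata4 rose in KOB of 6694c2 by 1.16 ± 0.13 (adjusted p 9.48e-07) and in KOB of 6419c5 by 0.74 ± 0.15 (adjusted p 7.8e-04). In KOA it differed from WT by −0.04 ± 0.13 and 0.23 ± 0.15 (adjusted p 0.862 and 0.279). Without KOA libraries 3 and 4 of 6694c2, the former became 0.23 (adjusted p 0.216). The rise from KOA to KOB was 1.20 ± 0.13 in 6694c2 (adjusted p 8.81e-07) and 0.51 ± 0.15 in 6419c5 (adjusted p 0.0282). The call in 6419c5 ended with size factors (0.44, adjusted p 0.0645), with quantile normalization (0.44, adjusted p 0.0524) and without any 1 of 4 libraries, KOA 1, KOA 2, KOB 2 or KOB 3.

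The fibroblast and pericyte markers moved with KOB of 6694c2, where all 12 together summed to between 78.7 and 135.5 TPM against 260.2 to 392.3 TPM in WT and 261.0 to 942.8 TPM in KOA. With their score as a covariate, Gata4 in 6694c2 KOB was 0.84 ± 0.22 higher than WT (adjusted p 0.0074), while Gata6 was 0.24 ± 0.17 higher (adjusted p 0.318). None of the 5 differences between KOB and KOA of 6694c2 was called with it, Gata6 standing at 0.26 ± 0.22 and Gata4 at 0.75 ± 0.28 (adjusted p 0.469 and 0.0798). Over all genes the calls in this comparison went from 6673 to 2242. The score ran from 2.03 to 2.39 in KOB and from 3.16 to 4.46 in KOA. As these ranges do not overlap, the covariate cannot be fully separated from the line. In 6419c5 KOB these markers summed to 1822 to 2693 TPM, against 1299 to 2115 TPM in WT. There the covariate left Gata6 at 1.60 ± 0.12 and Gata4 at 0.69 ± 0.15 (adjusted p 3.33e-08 and 9.99e-04). In 6419c5 KOA the markers summed to 736.4 to 922.7 TPM, below every WT library, and the covariate left Gata6 at 0.47 ± 0.17 (adjusted p 0.0552).

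The ratio of the pair went opposite ways in the clones. Gata6 over Gata4 had in 6694c2 a median of 1.91 for WT, 1.86 for KOA and 1.13 for KOB, and of 1.05, 1.29 and 1.79 in the same lines of 6419c5. The ranges of WT and KOB do not overlap in either clone, at least 1.84 in WT against 1.03 to 1.29 in 6694c2 KOB, and 0.833 to 1.06 in WT against 1.77 to 1.93 in 6419c5 KOB. These ratios are descriptions with no test.

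**Figure D3:**
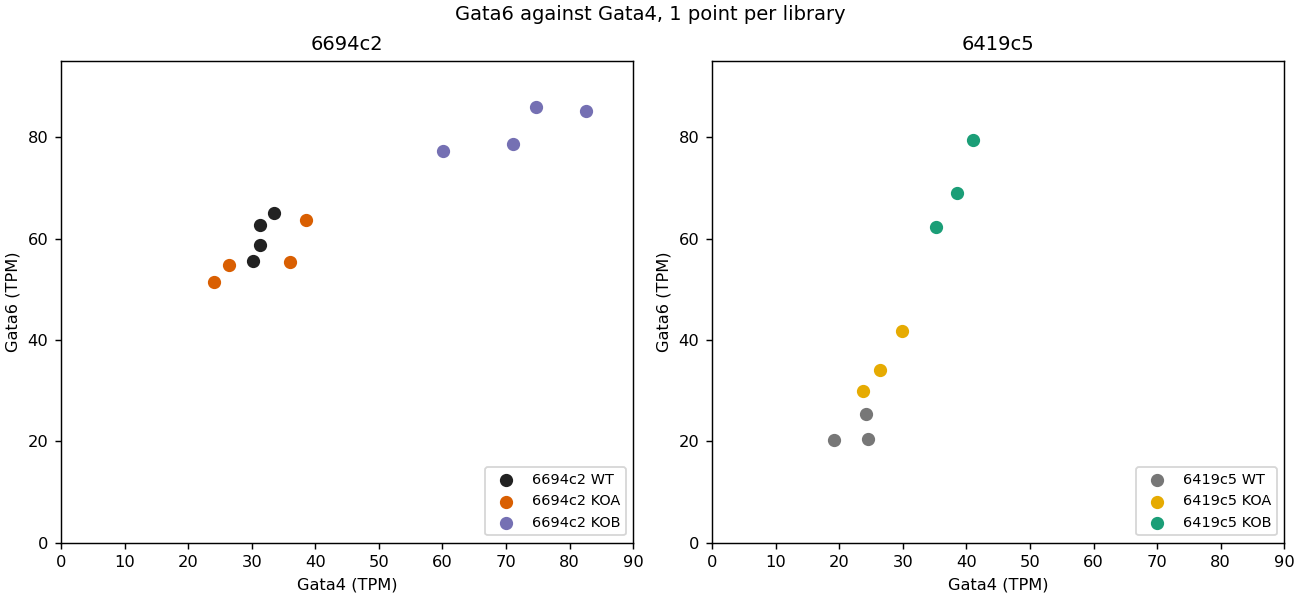
Gata6 against Gata4 in TPM, 1 point per library, on the same linear axes from 0 for both clones. The KOB libraries lie at the upper right in each clone, at 60.1 to 82.6 TPM of Gata4 in 6694c2 and 35.2 to 41.1 TPM in 6419c5, with Gata6 between 62.2 and 86.0 TPM.

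Hnf4a rose in the KO lines of 6419c5 and passed no test in those of 6694c2. In 6694c2 the WT libraries held 94.6, 100.6, 88.9 and 94.9 TPM, the KOA libraries 84.6, 86.7, 88.1 and 91.3 TPM, and the KOB libraries 92.8, 104.8, 99.2 and 79.4 TPM. The 3 groups overlap, and the differences from WT were −0.11 ± 0.10 in KOA and −0.02 ± 0.10 in KOB (adjusted p 0.459 and 0.907). In 6419c5 it measured 95.8, 100.4 and 71.2 TPM in WT, 128.7, 112.7 and 141.9 TPM in KOA, and 116.0, 116.8 and 110.5 TPM in KOB. All 6 KO libraries lay above the highest WT library. The rise was 0.52 ± 0.11 in KOA and 0.37 ± 0.11 in KOB (adjusted p 0.00164 and 0.0131). WT library 3, which held a high share of Mir6236, was the lowest: without it the rise in KOB was 0.22 (adjusted p 0.0944). Rescaling by size factors moved the median of all genes in this comparison from 0.10 to 0.00 and left Hnf4a in KOB at 0.26 (adjusted p 0.0654), and quantile normalization left it at 0.21 (adjusted p 0.112). In 6694c2, Hnf4a was called higher in KOB than in KOA when both libraries with the most Mir6236 were left out (0.17, adjusted p 0.0484).

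Onecut2, a cut homeobox factor of the HNF6 family, passed the test against WT in 6419c5 KOB and in none of the other 3 lines, and the effects of the clones differed by −0.14 (adjusted p 0.55). In 6419c5 the WT libraries held 40.6, 54.0 and 49.4 TPM, the KOA libraries 42.9, 38.4 and 59.5 TPM, and the KOB libraries 71.3, 71.5 and 53.6 TPM. KOB libraries 1 and 2 were above all others, and library 3 lay within the range of WT. The rise over WT was 0.44 ± 0.14 (adjusted p 0.0165) and over KOA 0.48 ± 0.14 (adjusted p 0.0224). The call against WT ended with size factors (0.32, adjusted p 0.0622), with quantile normalization (0.28, adjusted p 0.106), with a macrophage covariate (0.37, adjusted p 0.0801) and without WT library 1, KOB library 1 or KOB library 2. The call against KOA ended with the fibroblast score as a covariate (0.39, adjusted p 0.183), and without KOA library 1, KOA library 2, KOB library 1 or KOB library 2. In 6694c2, Onecut2 ranged from 62.4 to 74.3 TPM in WT, from 58.0 to 69.5 TPM in KOA and from 75.5 to 83.2 TPM in KOB. KOB lay above WT without overlap, and the difference of 0.20 ± 0.12 did not pass (adjusted p 0.174). Over KOA it stood at 0.30 ± 0.12 (adjusted p 0.0521). That difference was called with size factors (0.31, adjusted p 0.0393), with quantile normalization (0.35, adjusted p 0.0224) and without KOA library 3 (0.34, adjusted p 0.0469).

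Foxa2 and Foxa1 are pioneer factors of the endoderm that open closed chromatin, and Foxa2 was by far the more abundant. Foxa2 in 6694c2 measured 107.7, 98.7, 96.0 and 94.1 TPM in WT, 92.2, 106.6, 100.6 and 98.0 TPM in KOA, and 97.2, 103.3, 103.6 and 102.0 TPM in KOB. The groups overlap, and the differences from WT were 0.00 ± 0.09 in KOA and 0.04 ± 0.09 in KOB (adjusted p 0.986 and 0.767). In 6419c5 it measured 48.3, 43.9 and 36.9 TPM in WT, 48.4, 53.6 and 56.6 TPM in KOA, and 61.5, 76.6 and 82.5 TPM in KOB. The KOA libraries began at the top of the WT range, and KOB was clear of both. Foxa2 rose by 0.76 ± 0.10 in KOB (adjusted p 1.31e-05) and by 0.30 ± 0.10 in KOA (adjusted p 0.0335). The call in KOA ended with size factors (0.25, adjusted p 0.147), with quantile normalization (0.22, adjusted p 0.156), without WT library 2 or 3 or KOA library 2 or 3, and with the fibroblast score as a covariate (0.09, adjusted p 0.704). KOB exceeded KOA by 0.46 ± 0.10 (adjusted p 0.00466).

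Foxa1 was close to the 1 TPM filter in 6694c2. It measured 1.95, 1.64, 1.87 and 1.04 TPM in WT, 3.14, 1.66, 2.97 and 2.91 TPM in KOA, and 0.913, 1.45, 1.27 and 0.839 TPM in KOB. On the log2(TPM + 1) scale changes at such levels are understated. KOB lay below KOA in every library, a difference of −0.78 ± 0.18 (adjusted p 0.0019). With the fibroblast score as a covariate it turned to 0.14 ± 0.35 (adjusted p 0.822). Against WT, KOA differed by 0.48 ± 0.18 and KOB by −0.30 ± 0.18 (adjusted p 0.071 and 0.185). Without KOA libraries 1 and 2 the difference in KOA passed (0.60, adjusted p 0.0396), and so did the difference between the effects of the clones (0.68, adjusted p 0.0365). In the main fit the latter was 0.61 (adjusted p 0.0668). It was also called with size factors (0.62, adjusted p 0.0443), and without 6694c2 KOA library 2 (adjusted p 0.0267) or 6419c5 KOB library 1 (adjusted p 0.0146).

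In 6419c5, Foxa1 measured 6.02, 5.66 and 6.57 TPM in WT, 4.16, 3.94 and 5.36 TPM in KOA, and 5.31, 2.90 and 2.48 TPM in KOB. None of the 6 KO libraries reached the lowest WT value. The fall was −0.68 ± 0.21 in KOB (adjusted p 0.015), and the difference in KOA was −0.38 ± 0.21 (adjusted p 0.199). The call in KOB ended without KOB library 2 or KOB library 3, at −0.59 and −0.51 (adjusted p 0.0625 and 0.0867), and when both libraries with the most Mir6236 were left out (−0.63, adjusted p 0.0507). KOB was called lower than KOA with the fibroblast score as a covariate (−0.81, adjusted p 0.0328). Foxa2 over Foxa1 had in 6694c2 a median of 57.7 for WT, 33.8 for KOA and 94.1 for KOB, and of 7.75, 11.6 and 26.4 in the same lines of 6419c5.

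Sox9 moved in different directions by line. In 6694c2 it measured 181.8, 171.5, 157.5 and 180.7 TPM in WT, 182.1, 181.9, 285.8 and 304.3 TPM in KOA, and 111.7, 119.6, 116.6 and 99.6 TPM in KOB. KOB was below all other libraries of the clone. KOA libraries 1 and 2 stood at the top of the WT range and libraries 3 and 4 far above it. Sox9 fell in KOB by −0.62 ± 0.15 (adjusted p 0.00206). In KOA it was 0.42 ± 0.15 higher (adjusted p 0.0508), which became 0.77 (adjusted p 3.02e-04) without libraries 1 and 2 and 0.08 (adjusted p 0.747) without libraries 3 and 4. The difference in KOA was also called with quantile normalization (0.39, adjusted p 0.0421) and when both libraries with the most Mir6236 were left out (0.42, adjusted p 0.0366). Without KOA libraries 3 and 4, the fall in the mean of the KO lines was called (−0.27, adjusted p 0.0315). KOB was lower than KOA by −1.05 ± 0.15 (adjusted p 1.74e-05). With the fibroblast score as a covariate the fall in KOB was −0.21 ± 0.24 (adjusted p 0.548) and the difference between the KO lines −0.45 ± 0.31 (adjusted p 0.347). The macrophage markers summed to 318.9 and 542.2 TPM in KOA libraries 1 and 2 and to 935.7 and 1081 TPM in libraries 3 and 4, and their part in the split was not tested.

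In 6419c5, Sox9 measured 72.0, 73.0 and 100.4 TPM in WT, 52.1, 58.4 and 60.3 TPM in KOA, and 68.3, 86.7 and 81.1 TPM in KOB. All KOA libraries lay below WT, and KOB overlapped with WT. The fall in KOA was −0.50 ± 0.17 (adjusted p 0.0346). Without WT library 3, the highest, it was −0.35 (adjusted p 0.177). The call also ended without any 1 KOA library (adjusted p 0.0531 to 0.110), with no filter on low values (adjusted p 0.0517), and with the macrophage or fibroblast score as a covariate (adjusted p 0.0676 and 0.769). KOB differed from WT by −0.04 ± 0.17 (adjusted p 0.862). Over KOA it stood at 0.46 ± 0.17 (adjusted p 0.0794), which was called with the macrophage covariate (0.54, adjusted p 0.0338).

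Counted over the 8 factors, 6419c5 KOB had the most calls. There 6 of 8 were higher than WT (Pdx1, Hnf4a, Gata6, Gata4, Foxa2, Onecut2) and Foxa1 was lower, against 43.3% of all tested genes called, 28.5% higher and 14.7% lower. The median over the 8 was 0.56 and over all genes 0.10. The macrophage markers moved with this line: they summed to 456.2 to 611.4 TPM against 1011 to 2625 TPM in WT, with 6 of 14 called lower and 1 higher and a median of −2.13. With their score as a covariate 6 of the 7 calls held, all but Onecut2. In 6419c5 KOA, 4 were higher (Pdx1, Hnf4a, Gata6, Foxa2) and Sox9 was lower, against 31.8% of genes, 19.1% higher and 12.7% lower. The median over the 8 was 0.26 and over all genes 0.04. In that line 7 of the 12 fibroblast and pericyte markers were called lower and none higher, and with their score as a covariate 2 of the 5 factors were called, Pdx1 and Hnf4a. In 6694c2 KOB, 3 were higher (Pdx1, Gata6, Gata4) and Sox9 was lower, against 48.6% of genes, 29.2% higher and 19.4% lower, so that this count is near the background. The medians were 0.12 and 0.07. In 6694c2 KOA only Pdx1 was called, against 22.7% of genes, 15.2% higher and 7.56% lower, with medians of −0.02 and 0.08. Within a clone both KO lines were set against the same WT libraries, and their counts are not independent.

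KOB differed from KOA in 5 factors in 6694c2, Pdx1, Gata6 and Gata4 higher and Sox9 and Foxa1 lower, against 46.5% of genes, 23.6% higher and 22.9% lower. In 6419c5 it differed in 4, Gata6, Gata4, Foxa2 and Onecut2, all higher, against 17.4% of genes, 12.7% higher and 4.76% lower.

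With KOA and KOB averaged, 2 of 8 were called in 6694c2, both higher, against 37.4% of genes, 23.9% higher and 13.5% lower. These were Pdx1 at 0.51 ± 0.07 and Gata4 at 0.56 ± 0.11 (adjusted p 1.88e-05 and 8.21e-04). In 6419c5, 5 were higher and 1 lower, against 41.4% of genes, 26.5% higher and 15% lower. These were Pdx1 at 0.61 ± 0.08, Hnf4a at 0.45 ± 0.10, Gata6 at 1.14 ± 0.10, Gata4 at 0.48 ± 0.13, Foxa2 at 0.53 ± 0.09 and Foxa1 at −0.53 ± 0.18 (adjusted p 1.15e-05, 0.00129, 1.14e-07, 0.00657, 1.18e-04 and 0.0279). With the fibroblast score as a covariate Foxa1 was at −0.18 and Gata4 at 0.31, and neither was called (adjusted p 0.492 and 0.126). The effects of the clones differed for 3 factors, against 28.6% of genes, 13% higher and 15.6% lower in 6694c2 than in 6419c5. These were Gata6 by −0.97 ± 0.13, Hnf4a by −0.51 ± 0.13 and Foxa2 by −0.51 ± 0.12, each less in 6694c2 (adjusted p 3.69e-05, 0.00671 and 0.00344). When the line was a random effect, libraries of a line were taken as correlated, at 0.546 for all genes. Only Gata6 in 6419c5 was then called (adjusted p 0.0369), and Pdx1 stood at adjusted p 0.0591 in 6419c5 and 0.228 in 6694c2. Libraries still set the degrees of freedom of that fit, so its calls are not tests over lines.

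The parental lines of the clones differed from each other in 6 of the 8 factors, of which 5 were higher and Foxa1 was lower in 6694c2 WT, against 53.5% of genes, 21.5% higher and 32% lower. Gata6 was higher by 1.42 ± 0.11, Foxa2 by 1.19 ± 0.10, Sox9 by 1.09 ± 0.16, Onecut2 by 0.50 ± 0.13 and Gata4 by 0.47 ± 0.14 (adjusted p 9.15e-09, 1.45e-08, 2.15e-05, 0.0033 and 0.00964). Foxa1 was lower by −1.44 ± 0.20 (adjusted p 8.51e-06). Gata4 lost its call without 6419c5 WT library 1 (0.36, adjusted p 0.0613). Pdx1, at 0.15 ± 0.09 (adjusted p 0.164), was called with size factors (0.25, adjusted p 0.00847). Fibroblast and pericyte markers summed to 260.2 to 392.3 TPM in 6694c2 WT and 1299 to 2115 TPM in 6419c5 WT, and with their score as a covariate Gata4, Foxa1 and Onecut2 were not called (adjusted p 0.891, 0.185 and 0.0644). Gata6, Foxa2 and Sox9 were called with it, at 1.17, 0.90 and 1.63.

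Other factors of the pancreas and foregut programme were read from a list of 16, of which 13 were tested. In 6694c2, 6 were higher and none lower with the KO lines averaged, against 23.9% of all tested genes higher and 13.5% lower, with a median of 0.22 against 0.07 over all genes. By line, 3 were higher and none lower in 6694c2 KOA, against 22.7% of genes called, and 6 and 1 in KOB, against 48.6%. In 6419c5, 4 were higher and 1 lower, against 26.5% and 15%, with a median of 0.07 against 0.08, so that this count is near the background. The most abundant, the Notch target Hes1, differed by 0.16 and 0.00 (adjusted p 0.374 and 0.988). Hhex, a homeobox factor of the early liver and pancreas bud, averaged 27.2, 51.1 and 87.6 TPM in the WT, KOA and KOB lines of 6694c2, a rise of 1.26 (adjusted p 3.17e-06). In 6419c5 it averaged 33.0, 33.8 and 31.9 TPM in the same order. The difference of KO from WT in Hhex was 1.25 larger in 6694c2 than in 6419c5 (adjusted p 4.6e-04). Rbpj, the DNA-binding partner of Notch, differed by −0.18 and −0.40 with the KO lines averaged (adjusted p 0.336 and 0.0583). By line it was lower in KOB of 6694c2 and of 6419c5, by −0.55 and −0.62 (adjusted p 0.00975 and 0.0132). In KOA it was not called (adjusted p 0.467 and 0.512).

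Of 5 acinar factors only Xbp1, which drives the secretory pathway, was tested. In 6694c2 it rose by 0.64 (adjusted p 1.32e-07), and in 6419c5 its change was −0.26 (adjusted p 0.00367). Of 14 endocrine factors 3 were tested, and 1 was lower in each clone, the zinc finger factor Insm1. The share of all genes called was 37.4% in 6694c2 and 41.4% in 6419c5, so that these counts are near the background. Its means were 11.2, 33.2 and 0.308 TPM for the 6694c2 lines WT, KOA and KOB, and 6.47, 0.304 and 0.768 TPM for those of 6419c5. The KO lines of 6694c2 went opposite ways for Insm1, 1.30 in KOA and −3.21 in KOB (adjusted p 0.00397 and 7.89e-08). The KOA libraries were split here. All 14 endocrine factors together summed to 20.2 and 25.3 TPM in KOA libraries 1 and 2, and to 71.0 and 83.7 TPM in libraries 3 and 4. In WT they summed to 15.8 to 31.0 TPM. How far the Insm1 difference in KOA rests on libraries 3 and 4 was not tested. Mafa, which in the islet activates insulin, averaged 2.98, 4.29 and 1.01 TPM in the lines of 6694c2 and 1.11, 0.844 and 2.35 TPM in those of 6419c5. It passed no test with the KO lines averaged. By line Mafa was lower in 6694c2 KOB than in WT (−1.03, adjusted p 0.0059) and than in KOA (−1.31, adjusted p 0.00101).

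Among 8 tested gut and stomach factors, 5 were higher and 1 lower in 6694c2, against 37.4% of all genes called in either direction, with a median of 0.45 against 0.07 over all genes. In 6419c5, 3 were higher and 1 lower, against 41.4% of genes, with a median of 0.30 against 0.08, so that this count is near the background. These counts are for the mean of the KO lines. By line, 1 was higher and none lower in 6694c2 KOA, against 22.7% of genes called. In 6694c2 KOB 5 were higher and 1 lower, against 48.6%. The line counts in 6419c5 were 2 and 0 in KOA, against 31.8%, and 4 and 1 in KOB, against 43.3%. Klf5, a zinc finger factor of proliferating gut epithelium, averaged 222.0, 212.5 and 216.6 TPM in 6694c2 and rose in 6419c5 from 82.5 TPM in WT to 165.1 in KOA and 200.1 TPM in KOB (1.13, adjusted p 5.7e-10). Elf3, an epithelial ETS factor, rose in both clones with the KO lines averaged, by 0.72 and 1.18 (adjusted p 0.0357 and 0.00416). By line it was called in KOB of both (adjusted p 0.00168 and 0.00156) and in KOA of neither (adjusted p 0.731 and 0.0871). Klf4 rose by 0.38 in the mean of the 6694c2 KO lines (adjusted p 0.0093) and differed by −0.06 in 6419c5 (adjusted p 0.747). In 6694c2 it was at −0.16 in KOA and 0.92 in KOB (adjusted p 0.397 and 7.07e-06). Creb3l1 passed in neither clone with the KO lines averaged, at 0.42 and 0.52 (adjusted p 0.149 and 0.113). By line it was higher in 6419c5 KOB (1.10, adjusted p 0.00555), and KOA there stood at −0.07 (adjusted p 0.888).

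The markers of the classical tumour subtype were described as a list because GATA6 and HNF4A are known for that subtype. Of 16 tested, 10 were higher and 1 lower in 6694c2, against 37.4% of genes called, with a median of 0.53 against 0.07. In 6419c5, 8 were higher and 3 lower, against 41.4% of genes, with a median of 0.58 against 0.08. By line the counts were 12 higher and 1 lower in 6694c2 KOB, against 48.6% of genes called, and 2 and 2 in 6694c2 KOA, against 22.7%. They were 7 and 3 in 6419c5 KOA, against 31.8%, and 6 and 4 in 6419c5 KOB, against 43.3%. With the KO lines averaged, the trefoil peptide genes, which encode mucus-layer proteins, went opposite ways in the clones. Tff1 averaged 569.5, 452.4 and 4716 TPM in the 6694c2 lines WT, KOA and KOB, and its averages were 14.2, 0.798 and 1.84 TPM in the 6419c5 lines. By line Tff1 in 6694c2 differed from WT by −0.50 in KOA and 3.01 in KOB (adjusted p 0.369 and 3.13e-06), so its rise was in KOB only. Tff2 averaged 208.7, 652.8 and 2912 TPM in the 6694c2 lines against 37.6, 0.846 and 0.389 TPM in the 6419c5 lines, a difference between the effects of 7.31 (adjusted p 8.83e-09). Tspan8, a tetraspanin of epithelial tumours, rose in both clones, by 0.78 and 0.89 (adjusted p 8.97e-05 and 8.68e-05), and so did Plac8, by 0.44 and 1.13 (adjusted p 0.0286 and 5.48e-05). These are means of the KO lines, and in 6694c2 KOA neither gene was called (adjusted p 0.114 and 0.2).

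Of 9 tested basal-like markers, 3 were higher and 3 lower in each clone, against 37.4% of genes called in 6694c2 and 41.4% in 6419c5. The EGFR ligand gene Areg fell in both, by −1.92 and −0.999 (adjusted p 2.35e-07 and 8.46e-04), and Tns4, a focal adhesion gene, rose in both, by 1.10 and 1.91 (adjusted p 0.00766 and 2.39e-04). Krt7, a duct keratin, rose in 6419c5 by 1.78 (adjusted p 0.00657), and the glucose transporter gene Slc2a1 fell in 6694c2 by −0.62 (adjusted p 0.00125). These are means of the KO lines. In 6694c2 KOA, Tns4 was not called (0.52, adjusted p 0.301) and Slc2a1 stood at 0.00, against −1.24 in KOB. Of 10 ductal markers, 4 were higher and 2 lower in 6694c2, and 7 were higher and 1 lower in 6419c5, with medians of 0.20 and 0.93, against the same shares of all genes. By line, 1 ductal marker was higher and 1 lower in 6694c2 KOA, against 22.7% of genes called, and 5 and 2 in KOB, against 48.6%.

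**Figure D4:**
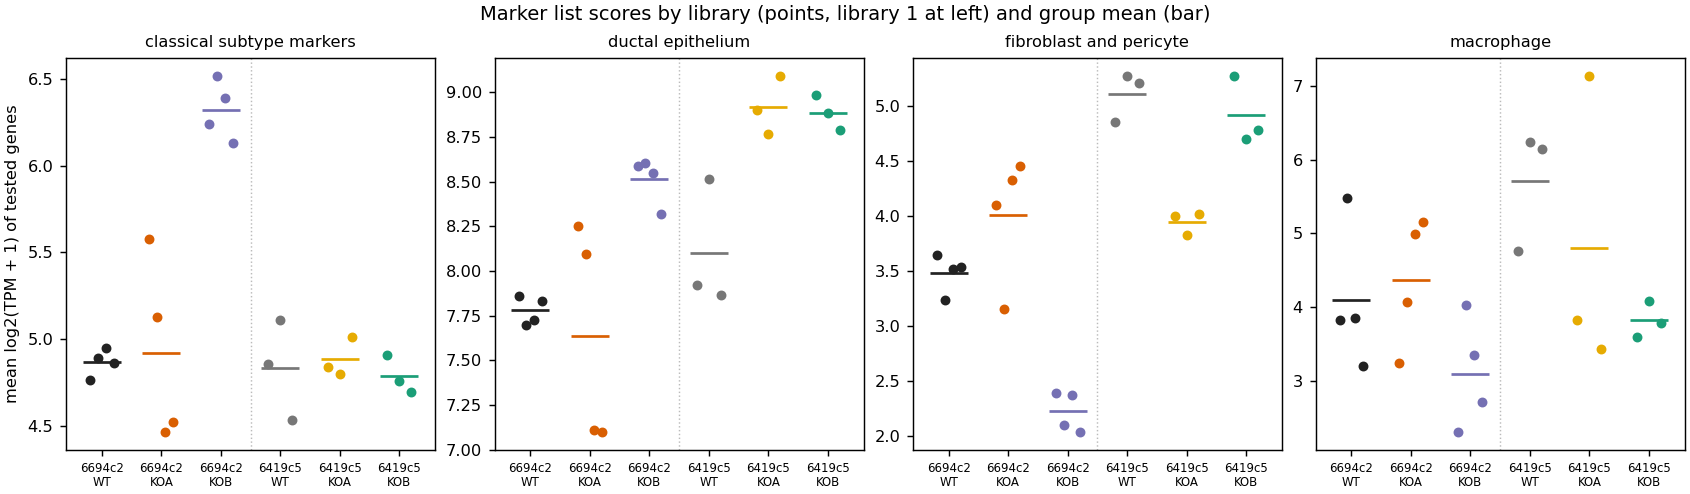
Mean log2(TPM + 1) of the tested genes of 4 marker lists in each library (points, library 1 at left) with group means (bars); the axes differ between panels and do not start at 0. The classical score lies between 6.13 and 6.52 in 6694c2 KOB and between 4.46 and 5.58 in the other groups, and the fibroblast and pericyte score between 2.03 and 2.39 in 6694c2 KOB and at 3.16 or above elsewhere.

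Likeness between genes was ranked by the smaller of the Pearson r of log2(TPM + 1) within the clones, over 12 libraries of 6694c2 and 9 of 6419c5. These r values hold the differences between lines and are descriptions with no test. The gene most like Gata4 was Gata6, at r = 0.960 in 6694c2 and 0.964 in 6419c5, and Gata4 ranked second for Gata6, after Rab3d at 0.961 and 0.970. Agrn, the proteoglycan agrin, came first for Pdx1 at 0.973 and 0.961, followed by Caskin2 and Prkce. For Sox9 the first was Erf at 0.954 and 0.952, then Nab2 and Mapkapk2. The closest genes were less alike for the other factors. The first was Slc25a15 for Onecut2 (0.867 and 0.911), Uba2 for Foxa1 (0.859 and 0.890), Glmp for Hnf4a (0.841 and 0.913) and Dpm1 for Foxa2 (0.739 and 0.842).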

How the data were processed

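RNA sequencing of sorted tumour cells was deposited by the authors as 1 table of gene-level TPM for 21 libraries. Per the submitters' processing notes it was made with Salmon against mm10; the Salmon version, the transcript set and the summing to genes are not given in the sources used here. The read number behind TPM is lost, so depth and counting error are unknown.

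The scale of analysis was log2(TPM + 1), with a pseudocount of 1. A gene was tested if 3 or more libraries reached 1 TPM, as 14337 of 24623 did. Limma 3.58.1 (R 4.3.3, statmod 1.5.0, eBayes with trend) fitted a mean for each of the 6 groups, with 15 residual and 3.12 prior degrees of freedom. Its p values (two-sided) had the Benjamini-Hochberg adjustment over all tested genes, and calls were made under 0.05. The KO effect averages KOA and KOB and subtracts WT. List scores average log2(TPM + 1) over tested genes. Other steps used Python 3.11.15, pandas 2.3.3, numpy 2.4.6 and matplotlib 3.10.9. The procedure was checked on simulated data.

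The members, the gene lists and the tests were chosen with earlier results of these data known. Named genes were the 8 members, the 3 genes most like each, up to 4 genes of each pathway list with the highest mean TPM, and Epha2. Some genes of the lists are not reported here by name. Alternatives were another pseudocount (0.1), no filter, size factors, quantile normalization, KO lines pooled or the line as a random effect, a replicate block, each library left out, the libraries of high Mir6236 left out, and stromal scores as covariates. The removal of 6694c2 KOA libraries by pair was added after seeing the data. The labels do not say whether library numbers pair the samples, and the main fit took the libraries as unpaired. Promoters and motifs were read from RefSeq sequences of GRCm38.p6, and gene models from its GENCODE annotation.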

Additional observations from a re-analysis of the deposited data

Results flagged for a closer look

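Among 24 sets of 4 libraries, where chance marks about 1 in 20, 1 had a library far from the rest: Foxa1 in 6694c2 KOA, where library 2 measured 1.66 TPM against 2.91 to 3.14 TPM in the others. The knockout effect differed between the clones for 3 factors by limma's test of the difference, 6694c2 less 6419c5. Of all tested genes 28.6% were called in this test, 13% higher and 15.6% lower, so that the count of 3 is near the background. The difference was −0.51 for Hnf4a, −0.97 for Gata6 and −0.51 for Foxa2 on the log2 scale. For each the KO lines of 6419c5 were higher than WT. None of the 3 differences was called with the line as a random effect (adjusted p 0.760, 0.534 and 0.760).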

How the results depend on the processing

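With the KO lines of a clone averaged, 2 factors were called in 6694c2, 6 in 6419c5 and 3 in the difference between the clones. With the KO lines pooled the 3 counts were 1, 4 and 1, and with the line as a random effect the 3 counts were 0, 1 and 0. Over all genes these 3 comparisons had 5361, 5942 and 4104 calls, against 2858, 3690 and 1801 with lines pooled and 130, 589 and 39 with the random effect. KOA of 6694c2 had 1 call, 2 with quantile normalization, 2 without the libraries of high Mir6236, 3 without KOA libraries 1 and 2, and 1 to 3 leaving out 1 library. KOA of 6419c5 had 5 calls, 3 without the libraries of high Mir6236, 2 with the fibroblast covariate, and 3 to 5 leaving out 1 library. Over all genes KOA of 6694c2 had 3258 calls, and 2252 to 4298 across the alternatives. KOA of 6419c5 had 4557, and 3766 to 5162 across them. The fibroblast covariate left 2 of 4 calls in 6694c2 KOB, 0 of 5 between KOB and KOA of 6694c2 and 3 of 6 between the parental lines, with 2242 of 6673 and 4078 of 7669 calls over all genes in the last 2. KOB against KOA of 6419c5 had 4 calls and 2 to 4 leaving out 1 library, and 2501 over all genes, 1649 without KOA library 1 and 1574 without KOB library 2. KOB of 6694c2 had 6972 calls over all genes, and 4650 to 7334 across the alternatives. The cause of these shifts was not tested.

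Signs that turned were all uncalled after turning, and 1 had been called, Foxa1 between KOB and KOA of 6694c2 (0.14 with the fibroblast covariate). That covariate also turned, in 6694c2, Sox9 (0.021) and Foxa2 (−0.047) in the KO mean, Gata4 in KOA (0.093), Hnf4a (0.032), Foxa1 (0.35) and Foxa2 (−0.19) in KOB and Foxa2 between KOB and KOA (−0.29), and in 6419c5 Gata4 (−0.065), Foxa1 (0.23) and Onecut2 (0.072) in KOA and Sox9 in KOB (0.020). Size factors turned Foxa2 (−0.062) and Onecut2 (−0.025) in the 6694c2 mean, and Foxa2 in KOA (−0.084) and KOB (−0.040). Quantile normalization turned Foxa1 (−0.027) and Foxa2 (−0.015) in that mean and Foxa2 in KOA (−0.054). Leaving out the libraries of high Mir6236 turned Hnf4a in 6694c2 KOB (0.061) and between the parental lines (−0.051), and Sox9 in 6419c5 KOB (0.11), which the macrophage covariate turned too (0.12). Without 6694c2 KOA libraries 1 and 2, Sox9 in the KO mean was 0.072 and the Gata4 difference −0.061, and without libraries 3 and 4 Gata4 in KOA was 0.23 and the Sox9 difference −0.0023. Leaving out 1 library gave ranges across 0 for Foxa1 (−0.031 to 0.16) and Foxa2 (−0.0046 to 0.060) in the 6694c2 mean, Foxa2 (−0.031 to 0.043) and Gata4 (−0.15 to 0.073) in KOA, Hnf4a in KOB (−0.071 to 0.061), Foxa2 between KOB and KOA (−0.0025 to 0.067), Hnf4a between parental lines (−0.051 to 0.19), and Onecut2 in KOA (−0.23 to 0.082) and Sox9 in KOB (−0.13 to 0.11) of 6419c5.

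Over 21 pairs of same-numbered libraries the r of their deviations from the group means ran from −0.15 to 0.17, with 6 over 0.1. Over 54 pairs of different numbers it ran from −0.34 to 0.29, with 12 over 0.1. These values cannot settle whether the numbers pair the samples. A fit with the replicate block ended 2 calls, Foxa2 in 6419c5 KOA (0.30, adjusted p 0.071) and Onecut2 between its KO lines (0.48, adjusted p 0.0599), and left Hnf4a between the parental lines at −0.0077. It left the counts of called factors at 2, 6 and 3 in the averaged comparisons. Foxa1 in the 6419c5 mean lost its call without WT library 1 or 3, KOA library 2, or KOB library 2 or 3, and Gata4 without WT library 1 (0.37, adjusted p 0.0545). Foxa1 there also lost it with a pseudocount of 0.1 (−0.64, adjusted p 0.0565), the macrophage covariate (−0.52, adjusted p 0.0549), the fibroblast covariate, KO lines pooled (adjusted p 0.142) and with both libraries of most Mir6236 left out (−0.48, adjusted p 0.0986), and Gata4 with the fibroblast covariate and KO lines pooled (adjusted p 0.277). Sox9 in that mean was called with size factors (−0.35) and quantile normalization (−0.40). TPM keeps no depth, so low genes such as Foxa1 have no counting error beside the spread between 3 or 4 libraries.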
